A study of Homo sapiens with 16 samples.

Results

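Folate one-carbon metabolism is described here through 8 human genes, out of 60676 gene identifiers measured. The genes were chosen by name: MTHFD1, SHMT1 and TYMS, whose enzymes act in the cytosol (TYMS also in the nucleus), MTHFD1L, MTHFD2, SHMT2 and ALDH1L2, whose enzymes act in mitochondria, and SLC19A1, the reduced folate carrier of the plasma membrane. All 8 passed the filter on low counts. RNA was sequenced in 16 libraries of total RNA from established melanoma cell lines, 8 of A101D, labelled as methionine dependent, and 8 of MeWo, labelled as methionine independent. Cells of both lines grew in medium made up without methionine, with dialyzed serum, glutamine, pyruvate and cystine, to which either methionine or homocysteine was added at 200 µM. No label or header says which library had which addition, so no medium is named below. Within each line, libraries numbered 1 to 4 and 5 to 8 were compared (n = 4 each), and the labels do not say what sets these number ranges apart. Nor do they say that libraries of one number range came from separate cultures, so p-values measure the spread between these libraries, which may be technical. The genes and the number ranges were chosen with earlier results of these data known, so the p-values do not rest on a blind choice.

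Folates carry single carbon units. Serine hydroxymethyltransferases move a carbon from serine onto tetrahydrofolate, and the enzymes of the MTHFD family convert the product through methenyl- to formyl-tetrahydrofolate. In proliferating cells the mitochondrial arm usually oxidises serine-derived carbon and exports it as formate, which the cytosolic arm uses to make purines, thymidylate and the methyl group that methionine synthase passes to homocysteine. MTHFD2 and its mitochondrial partners are known targets of ATF4, the transcription factor of the amino acid response, while TYMS and other genes of thymidylate synthesis are known for high expression in S phase.

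The smallest and largest A101D libraries held 28910881 and 38961862 counts, and those of MeWo 31217443 and 38722489. Melanocyte lineage markers summed to 1964 to 2818 CPM (counts relative to the library total after TMM scaling) in A101D and to 9892 to 11529 CPM in MeWo. TYRP1, a pigment enzyme, was under 1 CPM in A101D libraries 1 to 4. Leukocyte markers summed to at most 0.573 CPM in any library. Of the 5 fibroblast markers, COL1A1 and DCN averaged under 1 CPM in A101D, although the list summed to 937 to 1061 CPM in A101D libraries 1 to 4 and 573 to 640 CPM in libraries 5 to 8 through COL1A2, against 74.1 to 84.9 CPM in MeWo. The 3 endothelial markers summed to 3.81 to 4.86 and 14.9 to 19.4 CPM in the A101D ranges, with PECAM1 averaging under 1 CPM in both, and to at most 1.97 CPM in MeWo. The 4 keratinocyte markers summed to 18.9 to 41.5 CPM, with KRT5 and KRT1 under 1 CPM in each line. Whether cells or states behind these markers had a part in the differences below was not tested.

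Short motifs were searched in the 250 bases upstream of each start in RefSeq's promoter table (GRCh38.p14), which held 12 windows of 6 of the genes and none of SHMT2 or ALDH1L2. The motifs were the amino acid response element TGATGNAAN, the E-box CACGTG, which MYC and related factors bind, and the E2F words TTTCCCGC, TTTCGCGC, TTTGCCGC and TTTGGCGC, each on both strands. Among all 35116 windows of this length in the table, 3.13% held the response element, 6.34% the E-box and 2.79% an E2F word. Counted by gene, as some genes have several windows, the shares were 3.87%, 7.73% and 3.4%. The stretches of 30 bases below, given 5′ to 3′ on the gene's strand, hold the matches of MTHFD1L, MTHFD1 and TYMS, 3 genes whose levels moved in opposite directions in A101D; capitals mark the motif.
MTHFD1L response element: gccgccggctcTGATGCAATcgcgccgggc
MTHFD1L E-box: cacgcccggctcCACGTGcgcagccggccg
MTHFD1 E-box: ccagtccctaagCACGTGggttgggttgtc
TYMS E2F word: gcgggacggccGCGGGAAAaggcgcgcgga
The MTHFD1L stretches lie at chr6:150866346-150866375 and chr6:150866320-150866349. Their motifs start 129 and 154 bases before the start of window 1 of 4, and 90 and 115 bases before that of window 3. Windows 2 and 4 of MTHFD1L held no match. Both motifs fall within exon sequence of another annotated transcript, MTHFD1L-212. The E-box lies in its untranslated region, and the response element spans untranslated and coding sequence. The MTHFD1 stretch is at chr14:64388326-64388355 and its E-box starts 15 bases before the start, inside exons of longer transcripts such as MTHFD1-202. The TYMS stretch is at chr18:657603-657632, where the E2F word is read on the opposite strand and lies in the untranslated region of transcript TYMS-203. In the windows of SHMT1 and MTHFD2 none of these letters were found, and SLC19A1 had an E2F word, TTTCCCGC, in 1 of its 4 windows. A match is a run of letters and was not tested for binding.

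In A101D the cytosolic enzymes and the carrier were lower, and all 4 mitochondrial enzymes higher, in libraries 5 to 8 than in libraries 1 to 4. MTHFD1 fell 2.40-fold and TYMS 1.99-fold, while MTHFD2 rose 1.85-fold and MTHFD1L 1.34-fold. Each of the 8 genes was called at an adjusted p under 0.05 (limma-voom, Benjamini-Hochberg over 21569 genes), 4 higher and 4 lower, and none had overlapping libraries between the ranges. These shares stand against a broad background: 65.3% of all genes tested were called in this comparison, 29.6% higher and 35.8% lower, and 59.9% had no overlap. Of the calls 45.2% were higher, and 59.5% with library sizes from total counts alone, under which no member changed direction or call. The members' median log2 difference was -0.21, against -0.05 over all genes tested. No member lay near that median, as the 4 lower genes gave -1.26 to -0.77 and the 4 higher genes 0.35 to 0.89.

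**Figure D1:**
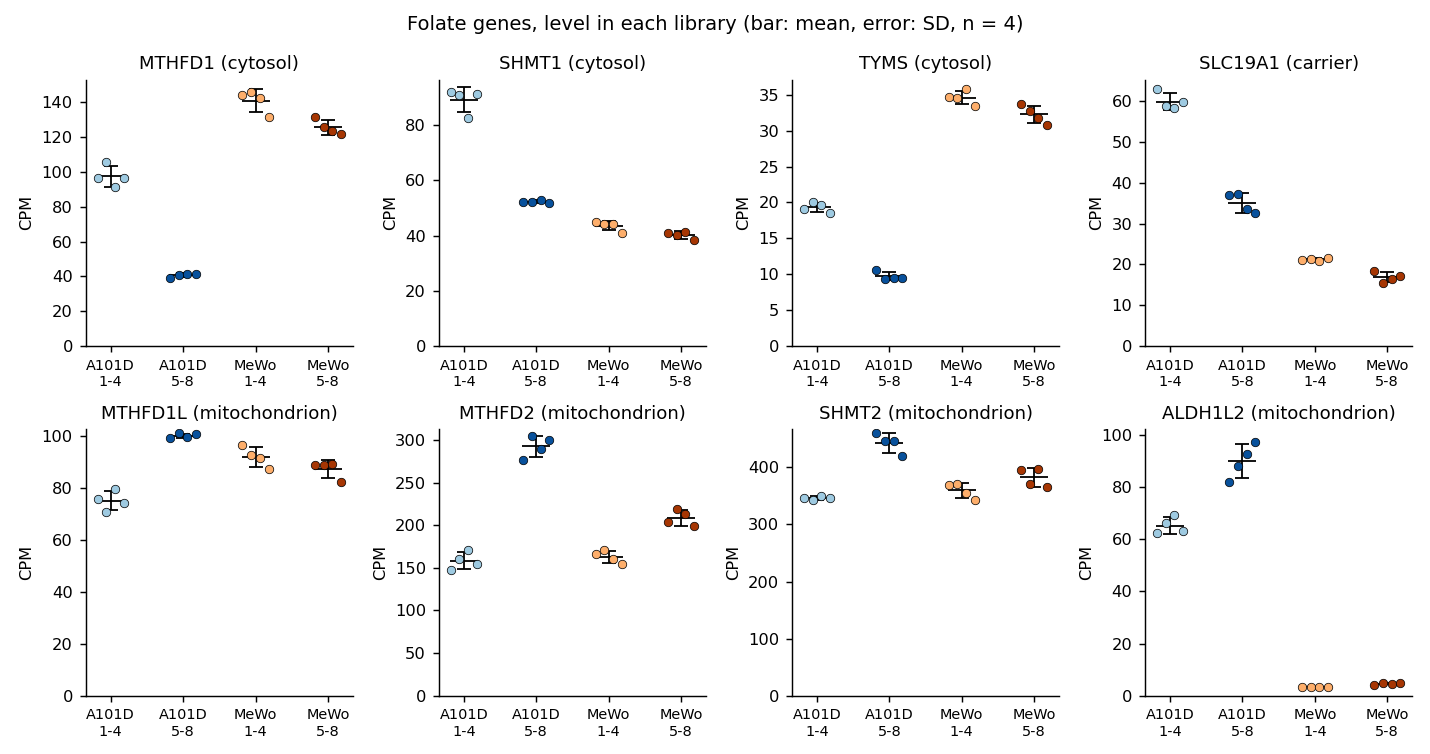
Level of each gene in CPM (y axis, linear from 0) in every library, by line and library number (x axis). Points are libraries, the bar is the mean and the error bar the SD (n = 4). In A101D the upper row drops and the lower row climbs from libraries 1-4 to 5-8, while MeWo shows smaller steps; ALDH1L2 stays under 5 CPM in every MeWo library.

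MTHFD1 (ENSG00000100714, chr14:64388031-64463457, plus strand; positions here and below are those of GENCODE v29, GRCh38, and all 8 genes are protein coding) is the trifunctional cytosolic enzyme that links formate, methenyl- and methylene-tetrahydrofolate. Its levels in A101D were 96.28, 105.7, 91.57 and 96.50 CPM in libraries 1 to 4 and 38.95, 40.69, 41.66 and 41.30 CPM in libraries 5 to 8. The difference was the largest among the members, -1.26 on the log2 scale (SE 0.05, adjusted p = 1.78e-26). In MeWo, MTHFD1 read 144.3, 145.8, 142.7 and 131.5 CPM in libraries 1 to 4 and 131.7, 126.1, 123.5 and 121.8 CPM in libraries 5 to 8. Libraries 4 and 5 of MeWo were alike and the ranges overlapped, with a log2 difference of -0.17 (SE 0.04, adjusted p = 0.00446). Its exons share 178 bp with ZBTB25 on the opposite strand, which stood at 15.2 ± 0.419 and 12.2 ± 0.369 CPM in the A101D ranges (SD, n = 4).

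TYMS (ENSG00000176890, chr18:657604-673578, plus strand) makes thymidylate from deoxyuridylate with a folate-borne carbon and is the target of fluorouracil. It was measured at 19.08, 20.02, 19.58 and 18.59 CPM in A101D libraries 1 to 4 and at 10.6, 9.36, 9.48 and 9.54 CPM in libraries 5 to 8, a fall of 0.99 on the log2 scale (SE 0.06, adjusted p = 7.54e-18). MeWo libraries 1 to 4 held 34.7, 34.6, 35.8 and 33.4 CPM and libraries 5 to 8 held 33.7, 32.8, 31.8 and 30.8 CPM. These overlapped, and the difference of -0.10 (95% interval -0.20 to -0.01) was not called (adjusted p = 0.148). TYMS shares 967 bp of exon with ENOSF1 on the opposite strand. The strand setting of the counting is unknown, and so is how the reads there were counted. ENOSF1 went from 38.1 ± 1.31 to 25.7 ± 1.94 CPM in A101D, and in MeWo it rose from 72.3 ± 4.98 to 85.9 ± 2.97 CPM (log2 0.25, adjusted p = 0.00015), where TYMS did not pass the test.

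SHMT1 (ENSG00000176974, chr17:18327860-18363563, minus strand), the cytosolic serine hydroxymethyltransferase, had 92.1, 91.0, 82.6 and 91.1 CPM in A101D libraries 1 to 4, and 52.1, 52.2, 52.9 and 51.9 CPM in libraries 5 to 8. The fall was 0.77 on the log2 scale (SE 0.04, adjusted p = 2.62e-20). In MeWo the gene lay between 41.1 and 45.0 CPM in libraries 1 to 4 and between 38.3 and 41.3 CPM in libraries 5 to 8; this difference of -0.12 (95% interval -0.21 to -0.03) was not called (adjusted p = 0.0847) and became a call without MeWo replicate 4 (-0.15, adjusted p = 0.0216, the lowest of its alternatives, which reached 0.363). SLC19A1 (ENSG00000173638, chr21:45493572-45544411, minus strand), which brings reduced folates and methotrexate into cells, read 62.9, 58.7, 58.2 and 59.8 CPM in A101D libraries 1 to 4 and 36.9, 37.2, 33.6 and 32.5 CPM in libraries 5 to 8 (log2 -0.78, SE 0.05, adjusted p = 1.34e-18). It was also lower in libraries 5 to 8 of MeWo, from 20.8 to 21.6 CPM down to 15.5 to 18.5 CPM without overlap (log2 -0.34, SE 0.06, adjusted p = 0.000122). Of its exon sequence, 1401 bp is shared with COL18A1 on the opposite strand, which changed from 245.9 ± 16.9 to 183.1 ± 6.65 CPM in A101D (log2 -0.42) and gave 114.9 ± 6.55 and 110.9 ± 9.23 CPM in MeWo, where it was not called.

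MTHFD2 (ENSG00000065911, chr2:74198562-74217565, plus strand), the mitochondrial dehydrogenase and cyclohydrolase that is high in embryonic and tumour cells and low in most adult tissues, had the largest rise among the members. A101D libraries 1 to 4 contained 147.8, 160.4, 171.0 and 154.5 CPM and libraries 5 to 8 contained 277.0, 304.1, 288.8 and 299.5 CPM (log2 0.89, SE 0.04, adjusted p = 1.33e-22). MeWo libraries 1 to 4 contained 165.7, 170.6, 159.8 and 153.9 CPM and libraries 5 to 8 contained 203.3, 219.0, 213.0 and 198.5 CPM, again with no overlap (log2 0.36, SE 0.04, adjusted p = 7.03e-08). The annotation lists 7 pseudogenes named after MTHFD2, and 1324 bp of its exon sequence is shared with SLC4A5, which was measured at no more than 1.23 CPM in any library, so that gene's counted reads were few beside those of MTHFD2. MTHFD2L, a mitochondrial relative of MTHFD2, also rose in A101D, from 12.6 ± 0.354 to 23.1 ± 1.68 CPM (log2 0.87, adjusted p = 8.21e-16), and was not called in MeWo, at 26.5 ± 0.613 and 24.8 ± 1.91 CPM (SD, n = 4).

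SHMT2 (ENSG00000182199, chr12:57229327-57234935, plus strand), the mitochondrial serine hydroxymethyltransferase, was measured in A101D at 346.2, 342.6, 349.9 and 346.5 CPM in libraries 1 to 4 and at 460.6, 445.4, 446.6 and 419.6 CPM in libraries 5 to 8 (log2 0.35, SE 0.04, adjusted p = 7.68e-12). In MeWo the ranges 342.5 to 371.1 CPM and 365.9 to 396.4 CPM overlapped, and the difference of 0.09 (95% interval 0.02 to 0.16) was not called (adjusted p = 0.102), whereas it was called with library sizes taken from total counts alone (0.14, adjusted p = 0.000455, with alternatives reaching 0.294). MTHFD1L (ENSG00000120254, chr6:150865549-151101887, plus strand), which releases formate from mitochondria, read 76.1, 70.8, 79.6 and 74.5 CPM in A101D libraries 1 to 4 and 99.6, 101.2, 99.7 and 100.8 CPM in libraries 5 to 8 (log2 0.42, SE 0.04, adjusted p = 4.69e-12). It was the only mitochondrial member with a negative value in MeWo, -0.08 (95% interval -0.16 to 0.01, adjusted p = 0.238), with libraries at 87.4 to 96.7 CPM and at 82.5 to 89.4 CPM.

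ALDH1L2 (ENSG00000136010, chr12:105019784-105084577, minus strand) oxidises the formyl group of mitochondrial formyl-tetrahydrofolate to carbon dioxide with formation of NADPH. Its A101D levels were 62.4, 66.2, 69.3 and 63.0 CPM in libraries 1 to 4 and 82.1, 88.1, 92.8 and 97.4 CPM in libraries 5 to 8 (log2 0.47, SE 0.04, adjusted p = 1.57e-12). MeWo held little of it, 3.37, 3.30, 3.46 and 3.45 CPM in libraries 1 to 4 and 4.25, 4.96, 4.66 and 4.71 CPM in libraries 5 to 8. The log2 difference in MeWo was 0.45 (SE 0.12, adjusted p = 0.0079), and it was no longer called when no filter on low counts was used (adjusted p = 0.0954, against 9.56e-06 at the lowest of its alternatives). NOPCHAP1, which shares 145 bp of exon with ALDH1L2 on the opposite strand, moved the other way in A101D, from 39.2 ± 1.96 to 21.8 ± 2.08 CPM.

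In MeWo as a whole, 4 of the 8 genes were called between the number ranges. SLC19A1 and MTHFD1 were lower, and MTHFD2 and ALDH1L2 higher. Over all genes tested 13.1% were called in this comparison, 4.59% higher and 8.51% lower. Of these 2825 calls 35% were higher, and 66.3% with total counts alone; without MeWo replicate 1, 2 or 3 the calls numbered 1743, 1716 or 1882. Libraries did not overlap for 3 of the 8 members (SLC19A1, MTHFD2 and ALDH1L2), against 14.3% of all genes tested. The members' median log2 difference was -0.09, against -0.02 over all genes tested.

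**Figure D2:**
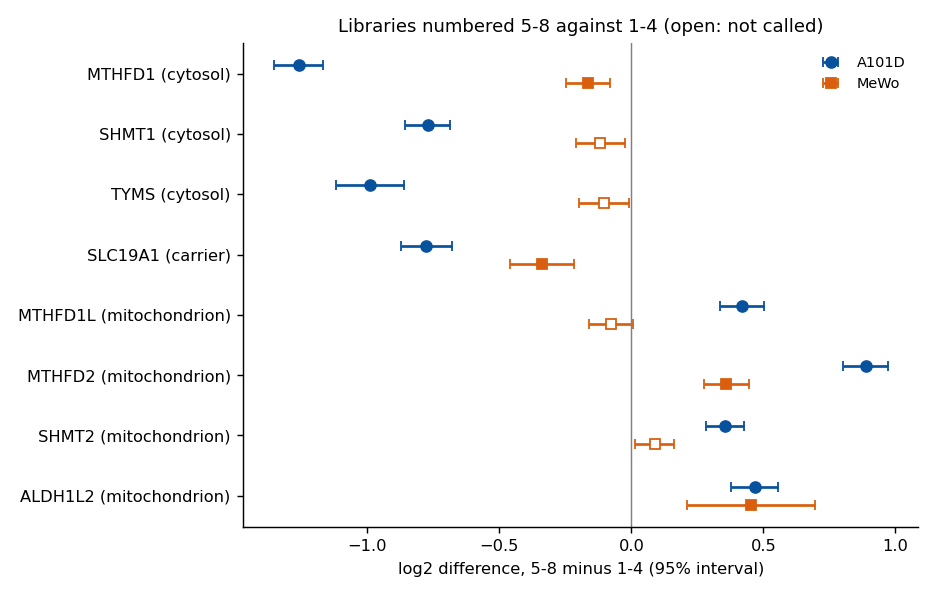
Log2 difference of libraries 5-8 minus 1-4 (x axis) for each gene (y axis), in A101D (circles) and MeWo (squares), with 95% intervals from the limma-voom fit; open symbols were not called. The A101D values lie left of 0 for the cytosolic enzymes and the carrier and right of 0 for the mitochondrial enzymes; only for ALDH1L2 do both lines give about the same value (0.47 and 0.45).

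The change itself differed between the lines for 7 of the 8 genes, by the interaction term of the same fit (MeWo minus A101D), a test that called 48.5% of all genes. MTHFD1 had the largest such difference, 1.10 on the log2 scale (SE 0.06, adjusted p = 2.99e-19), followed by TYMS with 0.89 (SE 0.08, adjusted p = 6.32e-13), SHMT1 with 0.65 and SLC19A1 with 0.44. Among the mitochondrial genes the term was -0.53 for MTHFD2 (SE 0.06, adjusted p = 3.4e-10), -0.49 for MTHFD1L and -0.27 for SHMT2. ALDH1L2 gave -0.01 (95% interval -0.27 to 0.24, adjusted p = 0.937), an interval that leaves room for a difference between lines of up to about the size seen for SHMT2.

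The cytosolic and mitochondrial members were then set against each other per library, as sums of CPM per kb of merged exon sequence. The cytosolic sum of MTHFD1, SHMT1 and TYMS was 30.64, 31.89, 29.04 and 30.33 in A101D libraries 1 to 4 and 15.6, 15.3, 15.5 and 15.4 in libraries 5 to 8. The mitochondrial sum of MTHFD1L, MTHFD2, SHMT2 and ALDH1L2 was 124.4, 125.6, 131.4 and 125.6 in libraries 1 to 4 and 181.6, 185.0, 182.4 and 179.8 in libraries 5 to 8. Neither sum overlapped between the ranges. Their ratio was therefore 4.17 ± 0.253 in A101D libraries 1 to 4 and 11.8 ± 0.211 in libraries 5 to 8 (SD, n = 4), a 2.83-fold difference to which the drop of the cytosolic sum (to 0.507 of its level) contributed more than the gain of the mitochondrial sum (1.44-fold). In MeWo the ratio was 3.61 ± 0.0795 and 4.37 ± 0.119, a 1.21-fold difference, and the cytosolic sum lay at 33.2 to 35.8 and 30.7 to 33.3. The size of the ratios depends on the length used: with the longest annotated transcript in place of merged exons they were 2.86 and 7.64 in A101D (2.67-fold) and 2.93 and 3.50 in MeWo, so that the A101D value in libraries 1 to 4 lay above that of MeWo with merged exons and below it with longest transcripts. These ratios are descriptions of chosen genes and carry no p-value. Other folate genes, left out of the sums, would change them. In the A101D ranges the cytosolic GART read 38.7 and 31.8 CPM per kb, MTR 14.9 and 10.9, and ATIC 9.72 and 5.96. Among mitochondrial genes DLD read 39.2 and 40.1 CPM per kb, SFXN1 12.1 and 5.52, and MTHFD2L 1.28 and 2.36.

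**Figure D3:**
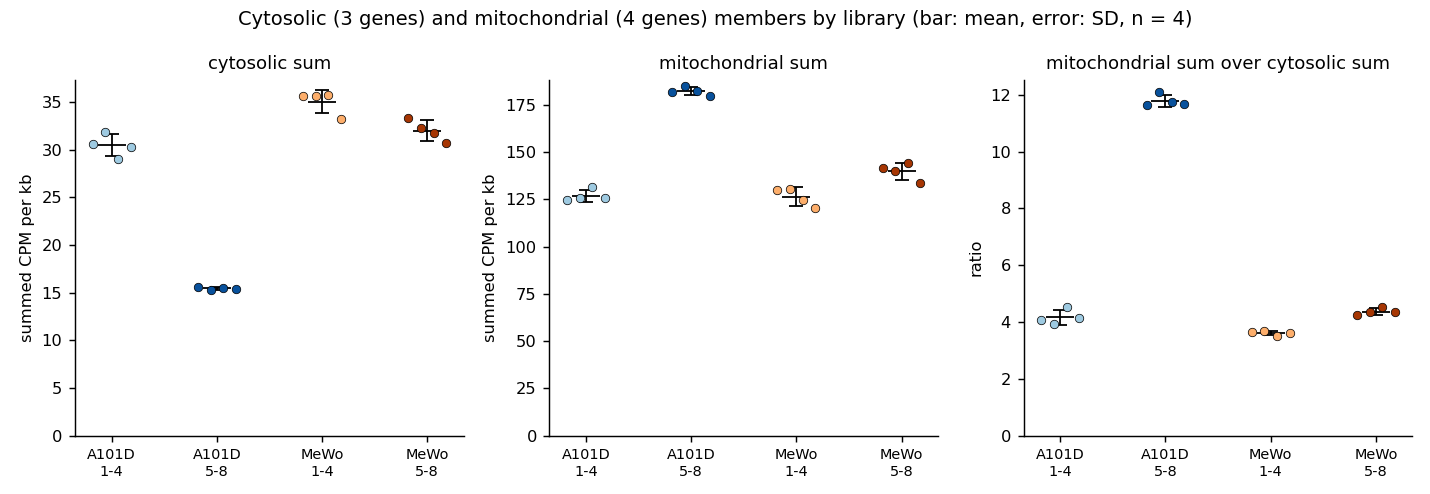
Sum of CPM per kb over 3 cytosolic genes (left), over 4 mitochondrial genes (middle) and the mitochondrial to cytosolic ratio (right), per library (points) by line and library number (x axis), with mean and SD (n = 4); all y axes are linear from 0. A101D libraries 5-8 stand apart, with ratios of 11.6 to 12.1 against 3.49 to 4.54 in all other libraries.

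Enzymes that catalyse the same step in each compartment were also paired. SHMT2 over SHMT1, per kb, was 5.86 ± 0.346 in A101D libraries 1 to 4, 12.8 ± 0.468 in A101D libraries 5 to 8, 12.4 ± 0.261 in MeWo libraries 1 to 4 and 14.3 ± 0.316 in MeWo libraries 5 to 8. A101D libraries 5 to 8 (12.2 to 13.3) overlapped MeWo libraries 1 to 4 (12.1 to 12.7), in which SHMT1 lay at 41.1 to 45.0 CPM. MTHFD1L over MTHFD1, both of which carry the formate-linked synthetase activity, was 1.45 ± 0.153 and 4.61 ± 0.129 in the A101D ranges and 1.22 ± 0.0293 and 1.30 ± 0.0431 in the MeWo ranges. MTHFD2 over MTHFD1 had the widest span, from 3.14 ± 0.312 to 13.9 ± 0.441 in A101D (4.41-fold) and from 2.22 ± 0.0458 to 3.19 ± 0.174 in MeWo (1.44-fold). The level of these ratios depends on the exon length used, since with the longest annotated transcript in place of merged exons SHMT2 over SHMT1 became 3.14, 6.84, 6.66 and 7.68 in the 4 groups; the fold between ranges does not depend on it for a pair.

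Ordered per kb of merged exon, SHMT2 was the most abundant of the 8 in every group, with 71.6 ± 0.611 and 91.6 ± 3.54 CPM per kb in A101D and 74.3 ± 2.76 and 79.0 ± 3.32 CPM per kb in MeWo. MTHFD2 came second (32.5 ± 2.02 and 60.0 ± 2.48, then 33.4 ± 1.49 and 42.8 ± 1.90 CPM per kb), and MTHFD1L followed it. SHMT2 alone made up 56.5% ± 1.08 of the mitochondrial sum in A101D libraries 1 to 4 and 50.3% ± 1.75 in libraries 5 to 8. The end of the order differed by line with this length: SLC19A1 was lowest in A101D, at 5.99 ± 0.209 and 3.51 ± 0.235 CPM per kb, and ALDH1L2 lowest in MeWo, at 0.399 ± 0.0087 and 0.546 ± 0.0346 CPM per kb. Neighbours that overlapped were TYMS and ALDH1L2 in A101D libraries 1 to 4, and MTHFD1 and TYMS in each other group. With longest transcripts, SHMT1 moved up to overlap MTHFD2 in A101D libraries 1 to 4 (32.4 and 35.6 CPM per kb) and ALDH1L2 was last there. SLC19A1, at 15.7 CPM per kb, lay above TYMS in that range and overlapped MTHFD1 (14.3 CPM per kb). In A101D libraries 5 to 8 TYMS was then last (5.86 CPM per kb, overlapping MTHFD1 at 5.97) and SLC19A1 lay above both (9.20 CPM per kb), so the last place of SLC19A1 in A101D held for merged exons alone.

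Between the lines, over all 8 libraries each, MTHFD1 and TYMS were higher in MeWo (log2 1.09, adjusted p = 0.000203, and 1.30, adjusted p = 1e-06), and SHMT1 (-0.70), SLC19A1 (-1.27) and ALDH1L2 (-4.26, adjusted p = 1.5e-14) were lower. The count of 5 of 8 compares with 78.2% of all genes called. MTHFD1L (0.05, 95% interval -0.12 to 0.22), MTHFD2 (-0.23, -0.58 to 0.13) and SHMT2 (-0.08, -0.23 to 0.07) were not called, in a fit whose spread within a line includes the difference between its number ranges. Averaged over the ranges in the fit of 4 group means, MTHFD2 (-0.22, adjusted p = 3.71e-09) and SHMT2 (-0.08, adjusted p = 0.00367) were called lower in MeWo; over all alternatives their adjusted p reached 0.403 and 0.54.

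The lines were also compared within each number range. In libraries 1 to 4, 6 of the 8 genes were called, against 79.1% of all genes: MTHFD1 (0.53), TYMS (0.84) and MTHFD1L (0.29) were higher in MeWo and SHMT1 (-1.04), SLC19A1 (-1.50) and ALDH1L2 (-4.26) lower. MTHFD2 (0.04, 95% interval -0.05 to 0.13) and SHMT2 (0.05, -0.02 to 0.13) were not called there, and SHMT2 was called with median-of-ratios factors (0.09, adjusted p = 0.0234), with total counts (0.09, adjusted p = 0.00361) and without MeWo replicate 4 (0.08, adjusted p = 0.0412), with alternatives reaching 0.272. In libraries 5 to 8 all 8 were called, against 84.1% of all genes. There MTHFD1 was 3.09-fold and TYMS 3.31-fold higher in MeWo, and all 4 mitochondrial genes were lower, MTHFD2 by 0.49, SHMT2 by 0.21 and MTHFD1L by 0.20 on the log2 scale. MTHFD1L was therefore higher in MeWo in one range and lower in the other, both past the test (adjusted p = 2.74e-08 and 2.04e-05). ALDH1L2 was 19.1-fold and 19.3-fold lower in MeWo in the respective ranges.

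**Figure D4:**
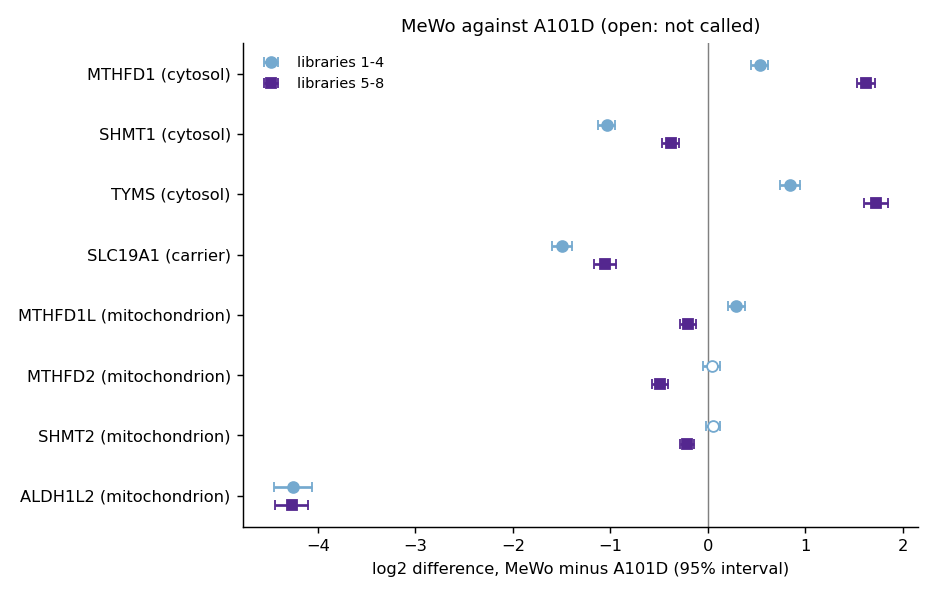
Log2 difference of MeWo minus A101D (x axis) for each gene (y axis) within libraries 1-4 (circles) and 5-8 (squares), with 95% intervals from the limma-voom fit; open symbols were not called. For MTHFD1, SHMT1, TYMS and SLC19A1 the value within 5-8 lies right of that within 1-4, for MTHFD1L, MTHFD2 and SHMT2 it lies left, and for ALDH1L2 the values coincide near -4.26.

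Most other cytosolic folate genes were also lower in A101D libraries 5 to 8. Of 6 described, 5 were lower and 1 higher, with a median log2 difference of -0.37 (35.8% of all genes tested were lower, and their median was -0.05). They included ATIC (38.2 ± 2.33 to 23.4 ± 1.502 CPM, log2 -0.71, adjusted p = 1.5e-14) and GART (-0.28), which spend formyl-tetrahydrofolate in purine synthesis, MTR, the methionine synthase (169.6 ± 7.90 to 123.7 ± 4.23 CPM, -0.46), and MTHFS (-0.27). MTHFS was no longer called with median-of-ratios factors (-0.19, adjusted p = 0.127) or total counts (-0.11, adjusted p = 0.397), which left 4 lower, nor with no filter (0.0766), with limma-trend (0.0677) or when any 1 of A101D replicates 1, 2, 4, 7 and 8 or MeWo replicates 1 to 3 was left out. FTCD, an enzyme of histidine breakdown, was scarce, at 0.857 ± 0.0901 and 0.120 ± 0.0481 CPM (-2.78, adjusted p = 2.86e-08), and did not pass the filter when any 1 of A101D replicates 1 to 4 was left out. The list held 3 lower genes without A101D replicate 1, 2 or 4. The higher gene was ALDH1L1, the cytosolic counterpart of ALDH1L2, at 0.802 ± 0.265 and 1.17 ± 0.157 CPM (0.60, adjusted p = 0.0237), a call lost without A101D replicate 2, 6 or 8 (adjusted p of 0.0572 to 0.116) and with no filter or limma-trend (0.0886 and 0.119). In MeWo 2 of the 6 were lower (GART, -0.14, and ALDH1L1, -1.85, from levels of 0.195 and 0.0551 CPM) and the others were not called, beside 8.51% of all genes lower; GART lost its call with total counts and without MeWo replicate 1, 2, 3 or 8, and ALDH1L1 with no filter and without MeWo replicate 2, 3, 5 or 6.

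Other mitochondrial folate genes moved in both directions in A101D libraries 5 to 8. Of 10 other mitochondrial genes 8 passed the filter (DMGDH and SARDH did not), and in A101D 4 of them were lower and 1, MTHFD2L, higher, with a median log2 difference of -0.45, beside 35.8% of all genes lower and 29.6% higher. With median-of-ratios factors or total counts the list held 3 lower and 2 higher, and with total counts the shares of all genes were 26.8% lower and 39.4% higher. SFXN1, a mitochondrial serine transporter, fell from 91.5 ± 2.58 to 41.8 ± 1.75 CPM (-1.13, adjusted p = 2.19e-24), and it was the 1 gene of the list that was lower in MeWo too (138.2 ± 9.95 to 113.8 ± 3.94 CPM, -0.28, adjusted p = 8.3e-06). Another gene of the list, lower in A101D (-0.24), was higher in MeWo (0.25, adjusted p = 0.0112). MeWo thus had 1 lower and 1 higher, beside 8.51% and 4.59% of all genes. That gene's A101D call was lost under either other scaling, with no filter (adjusted p = 0.055) and without A101D replicate 2, 4 or 7. The MeWo call of the same gene was lost with no filter (adjusted p = 0.0697) and without MeWo replicate 3 (0.0537) or 6 (0.0693). MTFMT, which formylates the mitochondrial initiator tRNA, fell by 0.66 and GCSH by 0.72. GLDC and DLD of the glycine cleavage system were not called in A101D (-0.08 and 0.03), although DLD was called higher with median-of-ratios factors (0.11, adjusted p = 0.0177) and total counts (0.19, adjusted p = 1.71e-06). GLDC stood at 29.2 ± 1.29 and 27.7 ± 1.29 CPM in A101D and at 1.44 ± 0.253 and 1.51 ± 0.188 CPM in MeWo, a line difference of -4.34 within libraries 1 to 4 (adjusted p = 2.92e-30), close in size to that of ALDH1L2.

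Among 6 genes of folate uptake and retention 4 passed the filter, and all 4 were lower in A101D libraries 5 to 8 (SLC46A1 -0.21, SLC25A32 -0.58, FPGS -0.26 and GGH -0.16), beside 35.8% of all genes. Apart from that of SLC25A32, these calls depended on the scaling. With median-of-ratios factors 2 of the 4 were called, SLC25A32 and FPGS, and with total counts SLC25A32 alone, where SLC46A1 gave -0.05 (adjusted p = 0.532), FPGS -0.10 (adjusted p = 0.054) and GGH 0.003 (adjusted p = 0.958). Without A101D replicate 2, SLC46A1 (adjusted p = 0.0963) and GGH (adjusted p = 0.0659) were not called. In MeWo limma-voom called 0 of these 4, and 1 of them, SLC46A1, had an unadjusted p under 0.05 (log2 -0.21, adjusted p = 0.0787); limma-trend also called 0. Without MeWo replicate 5 SLC46A1 was called lower (-0.25, adjusted p = 0.0423), and with total counts FPGS was called higher (0.12, adjusted p = 0.0299). FOLR1 and FOLR2, the folate receptors, averaged at most 0.106 CPM in each group and were not tested. The 14 genes of the S phase list were all lower in A101D libraries 5 to 8 (median -2.004), beside 35.8% of all genes, among them PCNA (123.7 ± 3.90 to 41.3 ± 1.22 CPM) and RRM2 (193.7 ± 7.07 to 15.5 ± 2.43 CPM), and 11 of 14 were lower in MeWo (median -0.19), beside 8.51% of all genes; with total counts 14 and 10 were lower. All 11 genes of the amino acid response list were higher in A101D (median 1.63), beside 29.6% of all genes, with ATF4 at 326.8 ± 9.14 and 788.7 ± 16.5 CPM, and 8 of 11 in MeWo (median 0.45), beside 4.59% of all genes, with ATF4 at 326.1 ± 9.64 and 533.4 ± 26.4 CPM; with total counts all 11 were higher in each line. The summed S phase list ranged over 1660 to 1720 and 376 to 413 CPM in the A101D ranges and 2248 to 2451 and 2011 to 2247 CPM in the MeWo ranges, the summed amino acid response list over 820 to 852 and 2227 to 2413 CPM and over 870 to 934 and 1170 to 1320 CPM. Both lists were chosen with earlier results of these data known, so their counts beside the shares of all genes are descriptions. The part of either list in the members' differences was not tested. In bulk libraries, fewer cells with a transcript and less of it per cell cannot be told apart.

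**Figure D5:**
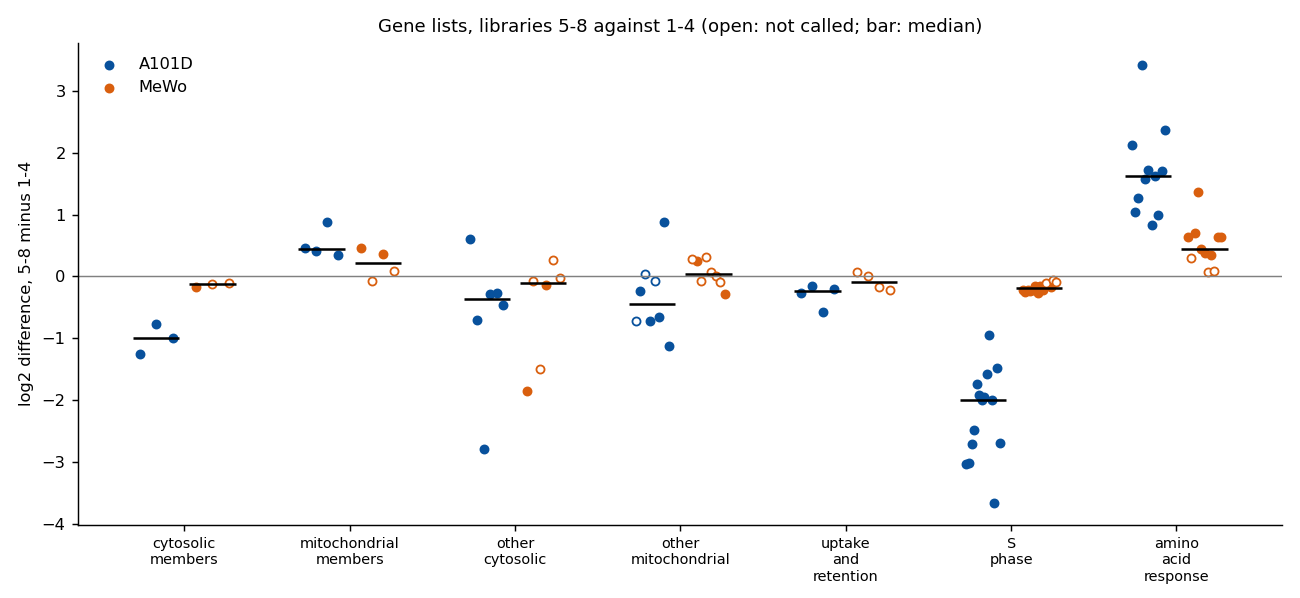
Log2 difference of libraries 5-8 minus 1-4 (y axis) for each tested gene of 7 lists (x axis) in A101D (blue) and MeWo (orange); open points were not called and bars are list medians. In A101D the cytosolic members lie below 0 with the S phase list (median -2.004), and the mitochondrial members above 0 with the amino acid response list (median 1.63). The other mitochondrial genes had a median below 0 (-0.45), as had the other cytosolic genes (-0.37) and those of uptake and retention (-0.23). The lists were chosen with earlier results of these data known.

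Likeness of pattern was described by Pearson's r of log2 CPM over the 16 libraries, among 10133 genes with a mean of at least 10 CPM. These points share 2 lines and 2 number ranges, that is 4 groups, and r is given without a p. MTHFD1 was closest to PCNA, the sliding clamp of DNA replication (r = 0.999), NUP188 and MCM4 (both 0.997), and TYMS to LIN52 (0.997), BIRC5 and TLCD3A (both 0.996). MTHFD2 was closest to ATF4 (0.984), ARHGEF2 (0.977) and CEBPG (0.975), which encodes a partner of ATF4. SHMT2 had TMEM102 (0.977), DNASE2 and MAFF (both 0.973) nearest, and ALDH1L2 had LSAMP, BCAT1 and FREM1 (all 0.998). The nearest genes of SHMT1 were MYH10, DZIP1 and GAS7 (0.995 to 0.994), those of SLC19A1 were BACE1, H3C8 and PLK2 (0.993 to 0.991), and MTHFD1L had the weakest neighbours, PRDM4, RNF20 and KRT8P12 (0.945 to 0.943).

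The members were also compared with each other within a line. Over the 8 A101D libraries the cytosolic genes and SLC19A1 correlated with each other at r from 0.976 to 0.995, and each correlated with MTHFD2 at r from -0.995 to -0.985. In MeWo the values were MTHFD1 with TYMS 0.925, MTHFD1 with MTHFD2 -0.727, MTHFD1L with SHMT1 0.944 and MTHFD1L with SHMT2 0.073. The pairs SLC19A1 with ALDH1L2 (-0.982) and MTHFD2 with ALDH1L2 (0.936) had about the same values in MeWo as in A101D (-0.981 and 0.972). These values rest on 8 libraries in 2 number ranges and are descriptions. In A101D no member overlapped between the ranges, so r there mostly restates the direction of each gene's range difference.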

How the data were processed

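The authors deposited 1 table per line of whole-number counts per gene over exons, per the file headers; each cell joins an Ensembl identifier and its count (the unit other than plain counts), and both were separated. The submitters' processing notes list Trimmomatic 0.39-1, STAR 2.7.1a, featureCounts 2.0.0 and GRCh38, without roles. The annotation release and strand option were not given in the sources used here; the labels name a stranded total RNA kit. Columns were matched to samples by line and replicate number in the header.

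Members, lists and the number ranges were chosen with earlier results of these data known. Gene names came from a symbol table, positions and lengths from GENCODE v29 (GRCh38).

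Own steps: TMM factors (trims 30% and 5%), a filter of 0.298 CPM (10 counts at the median depth) reached by 4 or more libraries, with a sum of 15 counts or more, leaving 21569 genes, then limma-voom (limma 3.58.1, R 4.3.3, robust empirical Bayes), Benjamini-Hochberg adjustment and a threshold of 0.05. One fit held the line alone, another the 4 means of line by number range. As the joined cells did not pass as counts, no quasi-likelihood count test was run. The fit was tested on simulated data. For the A101D ranges it recovered 69 of 100 changes of 0.5 on the log2 scale, and 96 of 100 for MeWo against A101D. Changes of 1 were all recovered, and 9 of 20325 unchanged genes were called for the A101D ranges. Few genes were changed there, equally up and down, so the scaling under a broad change was not tested. All 8 members are named, with most other folate genes that pass the filter (2 of the cytosolic list are not reported here and are left out of its counts); the S phase and amino acid response lists are given by counts with a few examples, and likeness names the 3 genes with the largest r. Overlapping genes were added after values were seen. Further exon overlaps on the opposite strand, not described above, were SHMT1 with SMCR8 (196 bp) and TYMS with TYMSOS (183 bp). Others were MTHFD2 with AC006030.1 (295 bp) and SHMT2 with AC137834.2 (427 bp) and NDUFA4L2 (33 bp). SHMT1 also shares 73 bp with MIR6778 on the same strand. Alternatives were median-of-ratios factors, total counts, no filter, a filter of 1 CPM, limma-trend, each library left out, the replicate number as a block, an average over ranges and, for levels per kb, the longest transcript. Replicate libraries differed by more than sampling noise (chi-square per degree of freedom at least 1.97).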

Additional observations from a re-analysis of the deposited data

Results flagged for a closer look

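The change from libraries 1-4 to 5-8 differed between the lines, by the interaction term (MeWo minus A101D, log2, limma-voom), for MTHFD1 (1.0955), SHMT1 (0.6544), TYMS (0.8859), SLC19A1 (0.4383), MTHFD1L (-0.4946), MTHFD2 (-0.5284) and SHMT2 (-0.2665). For the first 4 the change was less negative in MeWo, and for SHMT2 and MTHFD2 it was less positive; MTHFD1L had opposite signs in the lines, with the MeWo value not called.

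A single library stood apart from the other 3 of its range in 3 places, by Dixon's criterion. SHMT1 was at 82.64 CPM in A101D library 3, against 91.03 to 92.06 CPM in the others. TYMS was at 10.6 CPM in A101D library 5, against 9.36 to 9.54 CPM. MTHFD1L was at 82.45 CPM in MeWo library 8, against 88.96 to 89.37 CPM. The check covered 54 sets of libraries, of which chance alone would mark 2.7 at a rate of 1 in 20. Some sets were whole lines of 8 libraries that pool both number ranges. For those the rate need not hold, so 2.7 is a rough figure.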

How the results depend on the processing

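For the A101D ranges all 168 member values (8 genes in 21 alternatives) kept their direction and call, as did the 168 for MeWo against A101D within libraries 5 to 8. Some of these alternatives left out a MeWo library, which enters the A101D comparison only through the shared filter, scaling and spread. Leaving out 1 library at a time moved the genes called between the MeWo ranges from 2825 to between 1716 and 3756, the lowest 3 being 1716, 1743 and 1882 without MeWo replicates 2, 1 and 3. The interaction value of ALDH1L2 (-0.0149, not called) lay between -0.0611 and 0.024 with 1 library left out and turned positive without A101D replicate 1 (0.0067), 4 (8e-04) or 8 (0.024) and without MeWo replicate 5 (0.0221), never past the threshold. With total counts the share of calls that were higher went from 45.2% to 59.5% in A101D, from 35% to 66.3% in MeWo and from 57% to 45.8% for the interaction, while the median log2 difference of all genes in A101D went from -0.053 to 0.108; no member of the A101D comparison changed sign. The replicate numbers did not pair the lines (correlation of same-numbered libraries 0.0278 to 0.146); with the replicate number as a block 17059 genes were called between lines against 16869, and MTHFD2 became a call (-0.23, adjusted p = 0.0388). For the other folate, S phase and amino acid response lists the same alternatives were added after seeing the data; of the values called, GGH in A101D alone changed sign, with total counts (-0.1583 to 0.0031). The quasi-likelihood and DESeq2 tests were not run.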
